A study of Rattus norvegicus with 23 samples.

Results

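The mitochondrial respiratory chain and ATP synthase were followed through the nuclear genes for their subunits in rat dorsal hippocampus. Members were the probe sets of the array whose single gene symbol met a naming rule. The symbol began with Nduf, a letter a, b, c, s or v and then a digit, or with Uqcr, Cox4 to Cox8 or Atp5. Sdha, Sdhb, Sdhc and Sdhd were members as well. This gave 88 probe sets for 76 gene symbols, of 29211 probe sets in all. After the signal filter, 85 of the 88 were tested, 37 of complex I, 4 of complex II, 9 of complex III, 15 of complex IV and 20 of complex V. The other 3, Cox4i2, Cox8b and Cox8c, did not reach a signal of 40 on 4 arrays. Subunits whose probe set carries another symbol, several symbols or none, such as Cox6b1 and the subunits encoded in mitochondrial DNA, were not members. Ndufab1 of complex I and Cyc1 of complex III, outside the naming rule, were on the list of partners described later.

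The 4 groups were male F344 rats, and each array held RNA from the dorsal hippocampus of 1 hemisphere of 1 rat. Long-term rats (LT, n = 6) and short-term rats (ST, n = 6) carried an AAV2/9 vector for rat FKBP1b, a protein that limits calcium release from intracellular stores, and aged controls (AC, n = 5) carried the matching eGFP vector. Both vectors used a CaMKII promoter, which is active mainly in excitatory neurons, and were injected into CA1 on both sides at 2 µl per side, with 1.99e12 genome copies per ml for FKBP1b and 1.86e13 for eGFP. Young controls (YC, n = 6) are labelled sham and 5 to 6 months old, while the design text gives them no injection.

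LT, ST and AC rats were all 21 months old at assay. Injection ages in the labels were 12, 18 and 18 months for LT, ST and AC, and in the design text 13, 19 and 13 months. By the study's methods the LT and ST rats put on arrays had been chosen for FKBP1b expression above their group's median, and the AC and YC rats at random. AC against YC therefore holds age, vector and surgery together, and LT or ST against AC holds transgene, titer, the choice of rats by FKBP1b expression and, by one source or the other, injection age and length of exposure together. These cannot be told apart.

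The respiratory chain passes electrons from NADH, at complex I, and from succinate, at complex II, through ubiquinone to complex III, then by cytochrome c to complex IV, which reduces oxygen. Complexes I, III and IV pump protons across the inner mitochondrial membrane, and ATP synthase (complex V) uses the returning protons to make ATP. In the hippocampus most of this ATP goes to restoring ion gradients after synaptic and action potentials. Each complex except II mixes subunits from nuclear and mitochondrial genes, and many nuclear subunits are accessory proteins that stabilise the complex without carrying electrons.

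Promoters are shown for 2 subunit genes with high AC over YC ratios, Ndufa11 and Atp5me, and for the 2 genes with the lowest ratios in the catalytic core, Ndufs1 and Sdha. Each runs from 250 bases before to 50 bases after the gene's start in RefSeq annotation of GRCr8. They lie at chr9:1637364-1637663 (plus strand, Ndufa11), chr14:1464610-1464909 (plus strand, Atp5me), chr9:72073556-72073855 (minus strand, Ndufs1) and chr1:30764303-30764602 (plus strand, Sdha). Capitals mark matches on either strand to GCGCA, any base and GCGC in a row (NRF1), CCGGAAG (GABP), GGGCGG (SP1) or AAGATGG (YY1), the letters searched for 4 factors known from other mammals to act on respiratory genes.
Ndufa11: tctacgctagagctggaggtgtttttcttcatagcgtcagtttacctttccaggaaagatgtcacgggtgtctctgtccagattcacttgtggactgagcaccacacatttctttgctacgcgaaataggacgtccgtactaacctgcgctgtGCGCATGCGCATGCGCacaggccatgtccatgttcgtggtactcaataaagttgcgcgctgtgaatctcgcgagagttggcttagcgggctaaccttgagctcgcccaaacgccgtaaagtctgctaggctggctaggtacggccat
Atp5me: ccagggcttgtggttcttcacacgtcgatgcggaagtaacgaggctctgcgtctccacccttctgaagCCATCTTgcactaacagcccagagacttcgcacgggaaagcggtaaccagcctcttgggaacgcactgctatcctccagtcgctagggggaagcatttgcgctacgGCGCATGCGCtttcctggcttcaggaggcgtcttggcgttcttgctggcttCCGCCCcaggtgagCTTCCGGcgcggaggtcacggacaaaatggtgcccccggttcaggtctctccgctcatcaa
Ndufs1: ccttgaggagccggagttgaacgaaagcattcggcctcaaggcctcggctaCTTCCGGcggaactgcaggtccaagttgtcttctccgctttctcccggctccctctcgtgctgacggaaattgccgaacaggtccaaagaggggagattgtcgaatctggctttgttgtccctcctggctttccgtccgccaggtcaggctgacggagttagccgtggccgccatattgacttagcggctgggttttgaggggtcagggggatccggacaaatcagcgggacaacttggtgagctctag
Sdha: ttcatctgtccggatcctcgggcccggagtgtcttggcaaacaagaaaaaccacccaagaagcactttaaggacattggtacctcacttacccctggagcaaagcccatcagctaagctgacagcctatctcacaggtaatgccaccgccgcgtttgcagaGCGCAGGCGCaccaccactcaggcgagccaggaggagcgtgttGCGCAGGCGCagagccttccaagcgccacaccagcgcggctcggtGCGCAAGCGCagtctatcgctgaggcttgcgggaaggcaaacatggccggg
Ndufa11 held overlapping NRF1 matches and none for the other factors, and Atp5me held at least 1 match for each of the 4. Sdha held 3 NRF1 matches and Ndufs1 a single GABP match, so each of the 4 promoters shown held at least 1 match.

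Of the 76 member genes, 66 had a promoter in the RefSeq table. NRF1 letters were in 19.7% of these promoters, against 4.71% of all 27457 promoters, and GABP letters in 30.3%, against 9.22%. For YY1 the shares were 22.7% of member promoters and 7.3% of all promoters, and for SP1 43.9% and 34.9%. The 9 genes called higher in AC than in YC, described later, held NRF1, GABP and SP1 matches in 4 promoters each (44.4%) and YY1 matches in 3 (33.3%). Among the other 57 member promoters the shares were 15.8% for NRF1, 28.1% for GABP, 43.9% for SP1 and 21.1% for YY1. With so few called genes these differences were not tested. Neither Ndufb3 nor Ndufb10 held any of the 4. These are matches of letters in a fixed window, not measured binding.

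Array signals were alike in every group, but some arrays stood apart in cell-type markers. Array medians were 138 to 141 in LT, 134 to 140 in ST, 134 to 141 in AC and 137 to 141 in YC, and RNA integrity numbers were 8.9 to 9.8. The probe set that the array's gene table gives to Fkbp1b read 843 to 1217 in LT, 427 to 881 in ST, 364 to 458 in AC and 353 to 411 in YC. The study describes this array as having no probe set for that gene, so what the probe set reads is uncertain. Choroid plexus genes were high on LT 2, LT 5, AC 3 and AC 4, with mean centred log2 levels over 15 markers of 2.56, 2.57, 2.53 and 3.08, against 0.49 or less elsewhere, and these 4 are called the choroid-rich arrays. The red blood cell score (Hbb and Alas2) was 1.51 on AC 3 and 1.46 on AC 4, against 0.03 or less elsewhere. AC 5 had the highest microglial score, 0.98, and the lowest score of excitatory neuron markers, -0.435. The neuron markers Slc17a7, Camk2a and Snap25 were bright on every array, at 4064, 6330 and 10548 or more. Others of the 11 markers on that list varied widely between arrays, with Wfs1 at 580 to 2996 and Prox1 at 333 to 950. In this bulk tissue, fewer cells of a type and less RNA per cell cannot be told apart.

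Aged vector controls had slightly more RNA for a minority of respiratory subunits than young controls. In AC against YC, 9 of the 85 tested probe sets were higher and 1 was lower at an adjusted p under 0.05 (limma, Benjamini-Hochberg over all 13339 tested probe sets). Shares were 10.6% higher and 1.18% lower for members, against backgrounds of 5.56% higher and 4.18% lower over all tested probe sets, and 11.8% against 9.75% in either direction. The median log2 fold change was 0.03 over members and -0.01 over all tested probe sets, and 57 members lay above 0 (67.1%, against 47.5% of all). The 9 ratios of AC over YC were small, between 1.08-fold and 1.24-fold. The 9 belonged to complex I (Ndufa11, Ndufa1, Ndufa2, Ndufb3 and Ndufb10), complex IV (Cox7a2) and complex V (Atp5me, Atp5po and Atp5mc2).

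**Figure D1:**
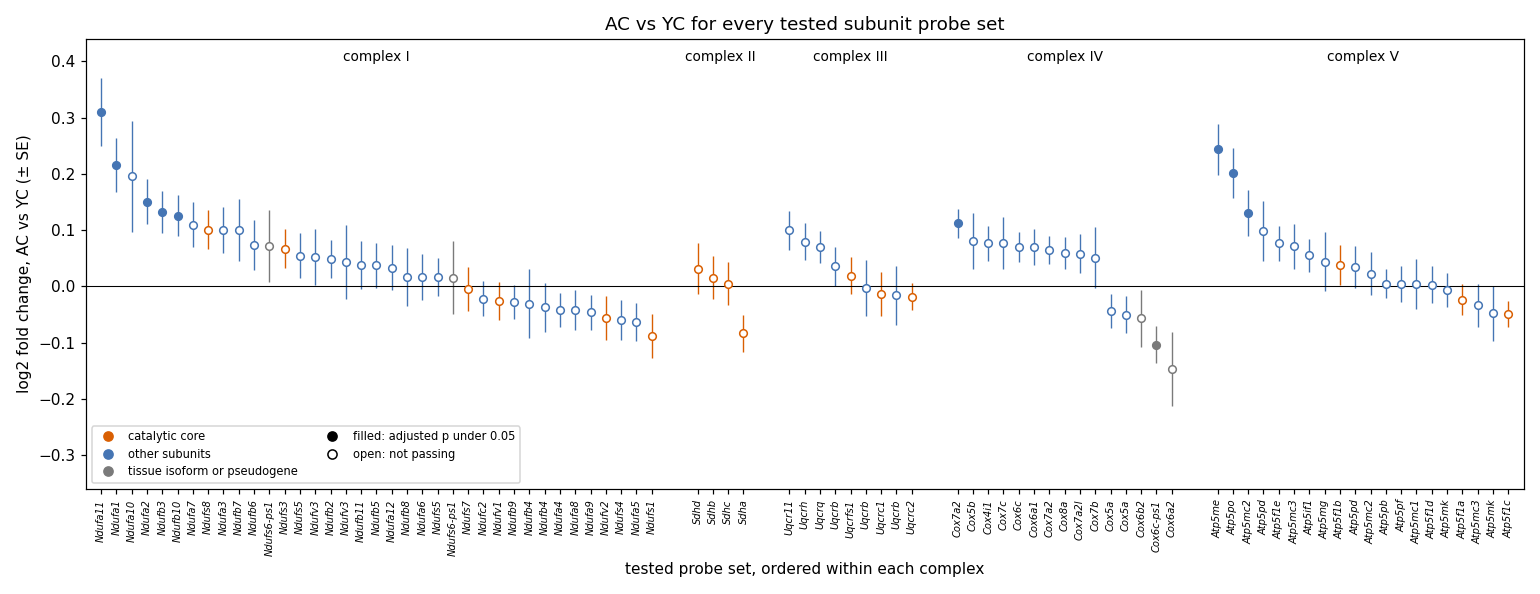
Log2 fold change of AC over YC (vertical axis, ± SE from limma) for each of the 85 tested probe sets, ordered within complexes I to V. Orange points are catalytic core subunits, blue points other subunits and grey points tissue isoforms or pseudogenes, and filled points passed an adjusted p under 0.05. The 9 filled points above 0 are all blue, led by Ndufa11 at 0.31, and the filled point below 0 is Cox6c-ps1 at -0.10.

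Ndufa11, an accessory subunit in the membrane arm of complex I, had the largest ratio. Its signal was 882, 1010 and 1091 in LT (lowest, median and highest), 933, 1022 and 1113 in ST, 1059, 1079, 1141, 1179 and 1243 on the AC arrays, and 833, 934.5 and 990 in YC. Every AC array was above every YC array, and both FKBP1b groups overlapped AC and YC. The log2 fold change of AC over YC was 0.31 (SE 0.06, adjusted p = 0.0038), or 1.24-fold. Without the choroid-rich arrays it was 0.29 (adjusted p = 0.0296).

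Atp5me, subunit e in the membrane part of ATP synthase, which helps the enzyme form dimers, ranked next. LT signals were 466, 504 and 526 (lowest, median and highest), ST signals 459, 504 and 530, AC signals 512, 517, 529, 547 and 622, and YC signals 441, 461 and 480. Again all AC arrays were above all YC arrays, and AC 5 was the highest of the 23. AC exceeded YC by 0.24 on the log2 scale (SE 0.05, adjusted p = 0.0032), and by 0.20 without AC 5 (adjusted p = 0.0040).

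Ndufa1, a small accessory subunit of complex I needed for its assembly in mammalian cells, read 411, 427.5 and 440 in LT, 409, 437.5 and 484 in ST, 448, 424, 479, 484 and 537 on AC arrays 1 to 5, and 386, 408 and 424 in YC. Only the lowest AC value met the YC range. The log2 fold change was 0.22 (SE 0.05, adjusted p = 0.0093). Atp5po, the stalk subunit that holds the catalytic head of ATP synthase still, read 884, 931.5 and 989 in LT, 918, 951.5 and 957 in ST, 904, 964, 1044, 1032 and 1116 on AC arrays 1 to 5, and 811, 890 and 924 in YC. Here the spread of AC was wide, with AC 1 inside the YC range, and the log2 fold change was 0.20 (SE 0.04, adjusted p = 0.0083).

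Ndufa2, an accessory subunit of the matrix arm of complex I, was 466 to 501 on the AC arrays and 421 to 457 in YC, without overlap, and 430 to 480 in LT and 425 to 487 in ST. Its log2 fold change of AC over YC was 0.15 (SE 0.04, adjusted p = 0.0213). Ndufb3 and Ndufb10, accessory subunits of the membrane arm of complex I, were both 0.13 higher in AC on the log2 scale, with adjusted p values of 0.0285 and 0.0326. Ndufb3 read 1184 to 1315 in AC and 1097 to 1189 in YC, and Ndufb10 read 978 to 1123 in AC and 938 to 992 in YC, so in each gene the lowest AC array lay within the YC range. Cox7a2, the isoform of subunit VIIa found in most tissues, was 0.11 higher in AC (SE 0.03, adjusted p = 0.0105) on probe set 10918940, at 2236 to 2406 in AC and 2103 to 2210 in YC. The ranges of AC and YC did not overlap in 4 members, Ndufa11, Atp5me, Ndufa2 and Cox7a2, or 4.71% of those tested, always with AC above YC. Over all tested probe sets the ranges did not overlap in 5.09%, with AC above in 3.21% and below in 1.88%.

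**Figure D2:**
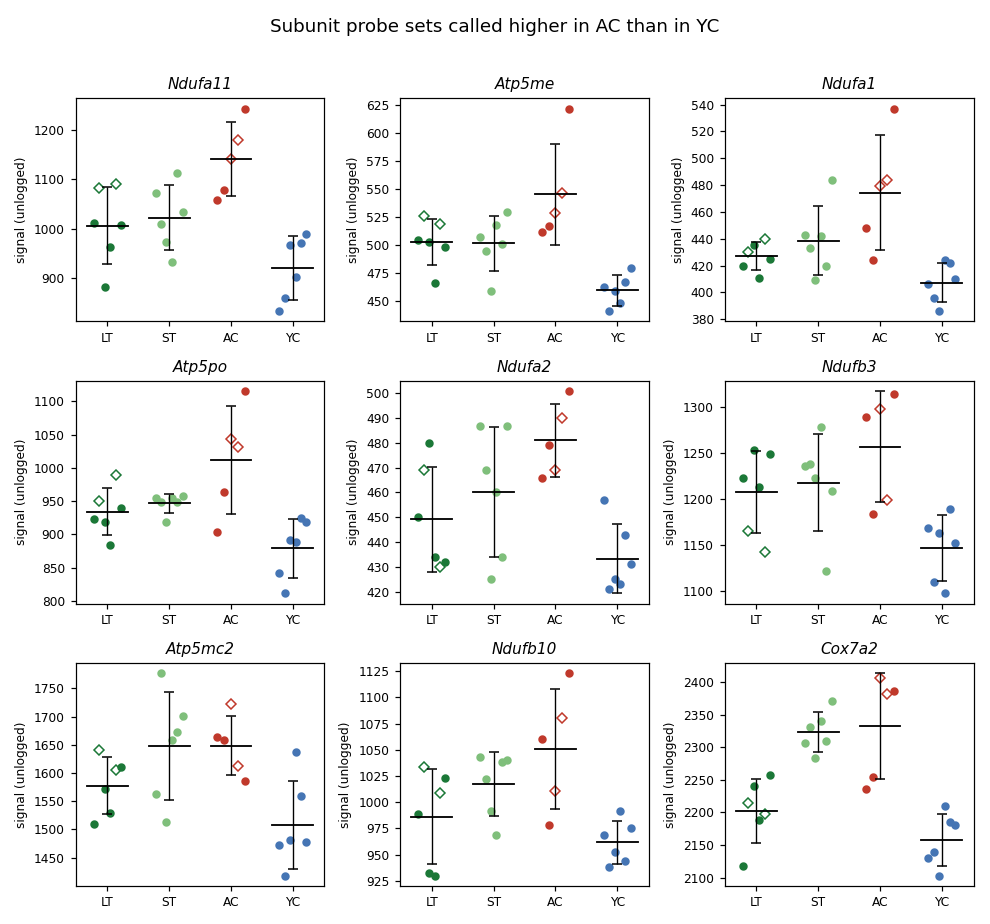
Signal of each array (vertical axes, unlogged, not starting at 0) in LT, ST, AC and YC for the 9 subunit probe sets called higher in AC than in YC, with horizontal lines for group means and vertical bars for SD (n = 6, 6, 5 and 6). Open diamonds are the 4 choroid-rich arrays. AC arrays lie above all YC arrays for Ndufa11, Atp5me, Ndufa2 and Cox7a2. ST arrays of Cox7a2 lie inside the AC range and above all YC arrays, and in the other panels ST arrays overlap YC.

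Markers of other cell types also differed between AC and YC. Of 10 microglial markers, 9 were higher in AC than in YC, with scores of -0.06 to 0.30 in LT, -0.07 to 0.43 in ST, -0.01 to 0.98 in AC and -0.38 to -0.28 in YC. Of 7 endothelial markers 6 were higher, and of 11 excitatory neuron markers 0 passed, with a median log2 fold change of -0.06. Astrocyte markers had 2 of 7 higher, with values up to 0.43, but 4 of the 7 lay below 0 and their median was -0.03. Inhibitory neuron and oligodendrocyte markers had 0 of 6 and 0 of 8 called, with medians of -0.19 and -0.11. Skeletal and heart muscle markers had 0 of 6 called, but all 6 lay below 0, with a median of -0.14. Red blood cell markers had 0 of 2 called. Choroid plexus scores ran from -0.41 to 2.57 in LT, -0.998 to -0.64 in ST, -0.76 to 3.08 in AC and -0.65 to -0.41 in YC, and no marker of these lists was at 0. The part of these markers in the subunit values was not tested, beyond the fits that follow. Without the choroid-rich arrays, 3 AC arrays were left, and the fit gave 3 members higher (Ndufa11, Atp5me and Ndufa10) and 1 lower (Cox6c-ps1). The log2 fold changes of the members that lost their calls there were 0.20 for Ndufa1, 0.17 for Atp5po, 0.15 for Ndufa2, 0.14 for Ndufb3, 0.13 for Ndufb10, 0.12 for Atp5mc2 and 0.09 for Cox7a2, close to those from all arrays, with adjusted p values of 0.075 to 0.177. A fit of AC and YC alone called 3, Ndufa11, Atp5me and Ndufa2, and leaving out YC 2, the array with the lowest mean member level, called 6. AC 5 (RNA integrity number 8.9) was the highest of all arrays for Ndufa11, Atp5me, Ndufa1, Atp5po, Ndufa2, Ndufb3 and Ndufb10. Leaving out AC 5 called 8, 7 of them among those called with all arrays. Ndufb3, Ndufb10 and Cox6c-ps1 lost their calls there, with adjusted p values of 0.0558, 0.0687 and 0.0583 from limma.

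The catalytic core and the other subunits are given side by side, with a background of 9.75% called in either direction and 5.56% higher over all tested probe sets. The core was taken as the 6 measured complex I subunits that bacteria also have (Ndufs1, Ndufs3, Ndufs7, Ndufs8, Ndufv1 and Ndufv2). It also held the 4 subunits of complex II, and Uqcrc1, Uqcrc2 and the Rieske protein Uqcrfs1 of complex III. The alpha, beta and gamma subunits of ATP synthase completed it. Uqcrc1 and Uqcrc2 are core proteins by name, and the label catalytic core does not mean that every member is catalytic. Cyc1 of complex III and the subunits encoded in mitochondrial DNA were not in this core. Of these 16 probe sets 0 passed in AC against YC, with 7 above 0, 9 below 0 and a median log2 fold change of -0.01, and a count of 0 in so small a set is near the background share. At an unadjusted p under 0.05 in limma stood Ndufs1, Sdha and Atp5f1c, with values below 0, and Ndufs8, with a value above 0. The 64 probe sets of other subunits held all 9 calls, 48 values above 0 and a median of 0.05. Moving the ATP synthase subunits that bacteria share outside the catalytic head (Atp5f1d, Atp5po, Atp5pb and the 3 subunit c genes) into the core gave 2 calls of 24 in the core and 7 of 56 outside it. With array medians made equal, Ndufs8 passed and the core's median was 0.01. The difference between core and other subunits was not tested.

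**Figure D3:**
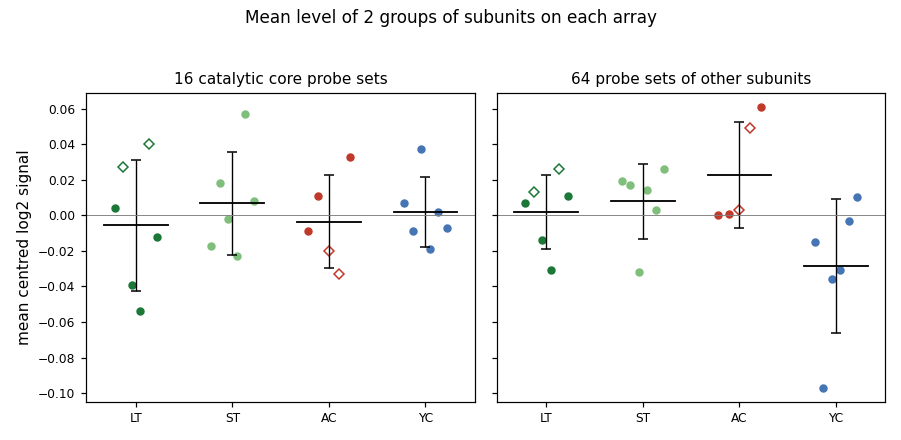
Mean log2 signal of each array, centred per probe set over the 23 arrays, for 16 catalytic core probe sets (left) and 64 probe sets of other subunits (right) in LT, ST, AC and YC, with group means and SD. Open diamonds are the 4 choroid-rich arrays. Core means were -0.006 in LT, 0.007 in ST, -0.004 in AC and 0.002 in YC, and means of the other subunits were 0.002 in LT, 0.008 in ST, 0.023 in AC and -0.029 in YC, with YC 2 lowest at -0.097.

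Within complex I, the core subunits that carry electrons from NADH to ubiquinone differed little between groups. Ndufs1, which holds several of the iron-sulfur clusters, read 1474 to 1691 in LT, 1550 to 1661 in ST, 1463 to 1617 in AC and 1559 to 1730 in YC, a log2 fold change of -0.09 in AC against YC (SE 0.04, adjusted p = 0.144). Ndufs8, another iron-sulfur subunit, read 502 to 566 in LT, 530 to 564 in ST, 549 to 623 in AC and 518 to 557 in YC, a log2 fold change of 0.10 (SE 0.03, adjusted p = 0.067). The 2 subunits thus leaned in opposite directions, and neither passed. Ndufs3, Ndufs7, Ndufv1 (which binds FMN) and Ndufv2 had log2 fold changes of 0.07, -0.0051, -0.03 and -0.06. By name, 3 of 12 Ndufa probe sets, 2 of 11 Ndufb probe sets and 0 of 11 for Ndufs and Ndufv subunits passed, all higher in AC. The background was 5.56% higher over all tested probe sets, and differences between these small sets were not tested.

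Ndufa4, a subunit once assigned to complex I and now to complex IV, read 4514 to 4916 in LT, 4465 to 4778 in ST, 4404 to 4691 in AC and 4416 to 4871 in YC, with a log2 fold change of -0.04 in AC against YC (adjusted p = 0.399). Ndufa10, an accessory subunit with 1 blank value in YC, was dim and the most variable member in LT, ST and AC, at 132 to 190 in LT, 145 to 187 in ST, 145 to 223 in AC and 154 to 164 on 5 YC arrays. Its log2 fold change of 0.20 had an SE of 0.10 and an adjusted p of 0.204, and the blank array was left out of its fit. Ndufa5, an accessory subunit of the matrix arm, had a value of -0.06 in AC against YC (adjusted p = 0.233).

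Complex II, which is also an enzyme of the citric acid cycle and is encoded by nuclear genes alone, had 0 of 4 probe sets past the threshold, a set too small to set against the background of 9.75%. Sdha, the flavoprotein that oxidises succinate, read 1933 to 2077 in LT, 1984 to 2169 in ST, 1860 to 2063 in AC and 2017 to 2163 in YC. AC and YC overlapped in a narrow band, and the log2 fold change was -0.08 (SE 0.03, adjusted p = 0.103). The iron-sulfur subunit Sdhb and the membrane anchors Sdhc and Sdhd had log2 fold changes of 0.015, 0.0049 and 0.03, with signals of 1083 to 1150, 1712 to 1901 and 823 to 977 in AC and 1076 to 1150, 1697 to 1866 and 797 to 932 in YC.

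In complex III 0 of 9 probe sets passed (background 9.75%). The core proteins Uqcrc1 and Uqcrc2 and the Rieske iron-sulfur protein Uqcrfs1 had log2 fold changes of -0.01, -0.02 and 0.02 in AC against YC. Nearest to the threshold was Uqcr11, a small accessory subunit, at 2621 to 2871 in LT, 2732 to 2991 in ST, 2702 to 3030 in AC and 2605 to 2788 in YC (log2 fold change 0.10, SE 0.03, adjusted p = 0.069). Uqcrb, a small subunit near the ubiquinone site, had 3 probe sets with log2 fold changes of -0.0035, -0.02 and 0.04.

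In complex IV, the oxygen-reducing end of the chain, all measured subunits are regulatory or structural, since the catalytic ones are encoded in mitochondrial DNA. Cox4i1, the isoform of subunit IV found in most tissues, read 2261 to 2398 in LT, 2236 to 2500 in ST, 2334 to 2436 in AC and 2196 to 2364 in YC, with a log2 fold change of 0.08 (SE 0.03, adjusted p = 0.116). The 2 probe sets of Cox5a were -0.05 and -0.04 and that of Cox5b was 0.08. Cox6a1, Cox7a2l (which links complexes III and IV) and Cox8a had values of 0.07, 0.06 and 0.06. None of these passed.

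Of the isoforms known from other tissues, 3 lay below the signal filter. Cox4i2, the isoform of subunit IV known from lung, read 25 to 34 in LT, 25 to 41 in ST, 30 to 39 in AC and 23 to 37 in YC. The muscle isoform Cox8b read 18 to 44 and the testis isoform Cox8c 22 to 37 over all arrays. Cox6a2, the heart and muscle isoform of subunit VIa, passed the filter at 154 to 188 in LT, 158 to 185 in ST, 146 to 193 in AC and 179 to 205 in YC. Its log2 fold change of -0.15 in AC against YC (SE 0.07, adjusted p = 0.151) was the lowest of all 85. Cox6b2, a testis isoform of subunit VIb, read 126 to 142 in LT, 122 to 136 in ST, 123 to 142 in AC and 122 to 149 in YC. The 1 member lower in AC was Cox6c-ps1, annotated as a pseudogene of Cox6c, at 79 to 84 in LT, 78 to 83 in ST, 71 to 81 in AC and 79 to 87 in YC (log2 fold change -0.10, adjusted p = 0.048), while Cox6c itself was 0.07 (adjusted p = 0.099).

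ATP synthase had 3 of 20 probe sets past the threshold, all higher in AC (background 5.56% higher). The alpha, beta and gamma subunits of its catalytic head, Atp5f1a, Atp5f1b and Atp5f1c, had log2 fold changes of -0.02, 0.04 and -0.05 and adjusted p values of 0.624, 0.52 and 0.17. Subunit c, which forms the rotating ring in the membrane, is made from 3 genes with the same mature protein. Atp5mc1 was 0.0036, the probe sets of Atp5mc3 were 0.07 and -0.03, and those of Atp5mc2 were 0.13 (10907634, adjusted p = 0.0477) and 0.02 (10812587, adjusted p = 0.742). Atp5mc2 10907634 read 1510, 1588 and 1640 in LT, 1513, 1666 and 1777 in ST, 1663, 1659, 1723, 1612 and 1586 on AC arrays 1 to 5, and 1418, 1480 and 1637 in YC. On 3 AC arrays it was above all YC arrays, and the other AC arrays were within the YC range.

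Of the 11 symbols with more than 1 probe set, a call was made on 1 probe set each of Cox7a2 and Atp5mc2. The second probe set of Cox7a2, 10772901, read 1662 to 1820 in AC and 1616 to 1683 in YC and had a log2 fold change of 0.07 (adjusted p = 0.0992). In AC against YC the pairs for Atp5mk were -0.0062 and -0.05, for Atp5pd 0.03 and 0.10, for Ndufb4 -0.04 and -0.03, for Ndufs5 0.05 and 0.02, for Ndufv3 0.05 and 0.04 and for the pseudogene Ndufs6-ps1 0.02 and 0.07. Atp5mc3 and Uqcrb had probe sets on both sides of 0. How far each probe set also reads close copies of its gene was not examined.

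FKBP1b expression came with no member past the threshold in either aged group. In LT against AC 0 of 85 members passed, against a background of 0.075% of all tested probe sets (0.0525% higher and 0.0225% lower), with 13 at an unadjusted p under 0.05 in limma (15.3% of members, against 12.6% of all). The methods' one-way analysis with Fisher's LSD called 12 without adjustment and 0 after Benjamini-Hochberg adjustment. Shares of all tested probe sets under that analysis are not given here or below, so its counts cannot be set against a background. The median log2 fold change in LT against AC was -0.01 over members and -0.003 over all tested probe sets. Values above 0 were in 35 of 85 members (41.2%, against 48.2% of all). LT and ST were each compared with the AC arrays that also entered AC against YC, so low values here and high values there share those arrays.

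Nearest to the threshold in LT against AC were Cox7a2 10918940 (-0.08, adjusted p = 0.178), Ndufa1 (-0.15, adjusted p = 0.202), Ndufa11 (-0.18, adjusted p = 0.21), Ndufs8 (-0.10, adjusted p = 0.216), Cox6c-ps1 (0.09, adjusted p = 0.236) and Atp5po (-0.11, adjusted p = 0.291). For Ndufa11 the 95% interval of the log2 fold change was -0.31 to -0.06, and for Cox7a2 -0.14 to -0.03. All members' LT ranges overlapped their AC ranges, against 1.03% of all tested probe sets without overlap (0.487% above and 0.54% below).

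In ST against AC 0 of 85 members passed and the background was 0%, with 6 members at an unadjusted p under 0.05 in limma (7.06%, against 9.82% of all). The methods' analysis called 6 without adjustment and 0 with it. The members with the smallest p were Ndufa11 (-0.16, adjusted p = 0.422), Atp5me (-0.12, adjusted p = 0.423), Ndufa1 (-0.11, adjusted p = 0.476), Ndufs7 (0.09, adjusted p = 0.483), Cox6c-ps1 (0.07, adjusted p = 0.487) and Atp5po (-0.09, adjusted p = 0.507). No member's ST range was clear of its AC range, against 0.51% of all tested probe sets, and 35 of 85 values were above 0 (41.2%, against 56.7%).

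LT and ST did not differ in any member past the threshold (0 of 85, background 0.0075%), with 4 members at an unadjusted p under 0.05 in limma (4.71%, against 12.4% of all) and 3 in the methods' analysis. Cox7a2 10918940 was 2118 to 2257 in LT and 2283 to 2371 in ST, without overlap, and its log2 fold change of LT over ST was -0.08 (SE 0.02, adjusted p = 0.216). That was the 1 member of 85 whose LT arrays were all below its ST arrays, 1.18%, against 1.06% of all tested probe sets. Over all of them, 1.5% had no overlap and 0.442% had LT above ST. Log2 fold changes were above 0 in 36 of 85 members (42.4%, against 42.5%). Ndufs7 (-0.09), Atp5mc3 10940472 (0.09), Sdhb (-0.08), Uqcr11 (-0.07) and Atp5mk 10747614 (0.09) followed, with adjusted p values of 0.306 to 0.431.

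Against young controls, LT had 0 of 85 members past the threshold (background 1.03%, 0.81% higher and 0.225% lower) and ST had 1 (1.18%, background 4.15%, 2.71% higher and 1.44% lower). Values above 0 were in 62 members in LT (72.9%, against 43.9% of all) and in 58 in ST (68.2%, against 52.5%). No LT range was clear of its YC range, against 3.33% of all tested probe sets (2.29% above and 1.04% below). In ST 19 members were at an unadjusted p under 0.05 in limma (22.4%, against 21.7% of all). In LT 8 were (9.41%, against 13.4% of all), and 6 in the methods' analysis, led by Cox8a (0.08, adjusted p = 0.151) and Atp5me (0.13, adjusted p = 0.17). The member past the threshold in ST was Cox7a2 10918940, at 2283 to 2371 in ST and 2103 to 2210 in YC, a log2 fold change of 0.11 (SE 0.02, adjusted p = 0.0165). Atp5f1e, the epsilon subunit of the ATP synthase head, was 1756 to 1839 in ST and 1590 to 1750 in YC, without overlap, but did not pass (0.09, adjusted p = 0.083). These were the 2 members whose ST arrays were all above YC (2.35%, against 3.49% of all, and 4.72% in either direction). Ndufa11 was 0.13 in LT against YC (adjusted p = 0.323), 0.15 in ST against YC (adjusted p = 0.13) and 0.31 in AC against YC.

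**Figure D4:**
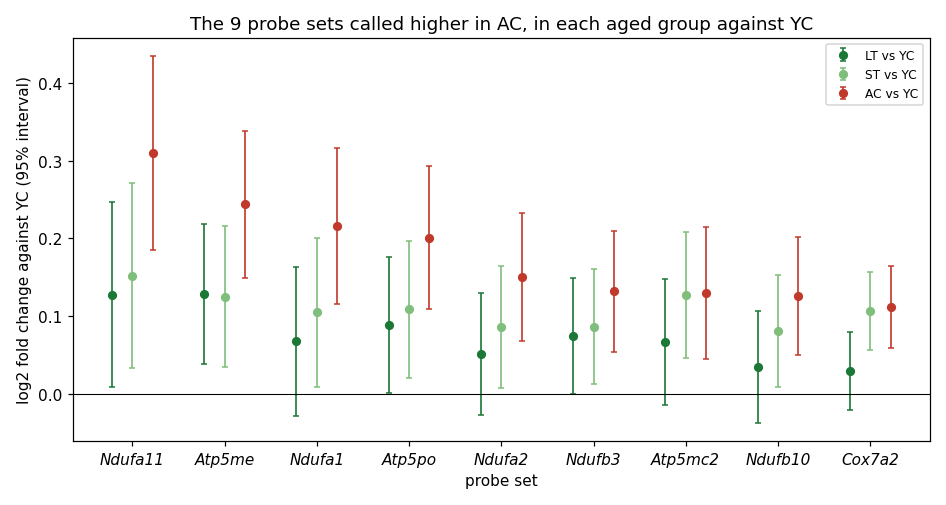
Log2 fold change against YC (vertical axis, with 95% intervals from limma) of LT, ST and AC for the 9 probe sets called higher in AC than in YC. All 3 comparisons share the YC arrays, and the probe sets were picked on AC against YC. For Ndufa11 the values are 0.13 in LT, 0.15 in ST and 0.31 in AC, and for Cox7a2 0.03, 0.11 and 0.11.

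Across the 4 groups together, an F test called 5 members, 5.88% of 85, against 5.46% of all tested probe sets. They were Ndufa11, Atp5me, Ndufa1, Atp5po and Cox7a2 10918940, all among those called in AC against YC. Without the choroid-rich arrays the count was 0, and without YC 2 it was 2. Members varied little between rats of a group, with a median SD on the log2 scale of 0.05 in LT, 0.05 in ST, 0.06 in AC and 0.05 in YC, against 0.08, 0.08, 0.11 and 0.07 over all tested probe sets.

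Genes that work beside the chain were called in AC against YC in shares close to the 9.75% of all tested probe sets, at 11.1% of probe sets for partners, 8.11% for assembly factors, 11.1% for pyruvate dehydrogenase and the citric acid cycle and 13.3% for carriers and porins. Of 9 probe sets for its electron donors and partners, 1 was higher, Etfb, a subunit of the flavoprotein that brings electrons from fatty acid oxidation (log2 fold change 0.16, adjusted p = 0.0070). Of 37 for assembly factors 2 were higher and 1 lower. Uqcc2 (0.12, adjusted p = 0.039) and Uqcc3 (-0.18, adjusted p = 0.0037), both factors for complex III, moved in opposite directions, and Cmc1, a factor for complex IV, was 0.24 (adjusted p = 0.046) at signals near the filter. Of 27 for pyruvate dehydrogenase and the citric acid cycle 1 was higher and 2 lower. Pdk1, a kinase that inhibits pyruvate dehydrogenase, was 0.24 (adjusted p = 0.0024), and Idh3a and Idh3b, subunits of the NAD-dependent isocitrate dehydrogenase, were -0.11 and -0.12 (adjusted p = 0.028 and 0.037).

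Of 15 probe sets for mitochondrial carriers and porins 2 were lower, Slc25a5, an exchanger of ADP and ATP (-0.12, adjusted p = 0.022), and Vdac2, a pore of the outer membrane (-0.10, adjusted p = 0.028). Regulators of mitochondrial gene expression had 0 calls of 19 and glycolytic enzymes 0 of 38, and the smallest adjusted p values from limma were those of Ppara (0.11, adjusted p = 0.167), a receptor for fatty acids, and Hk2 (0.27, adjusted p = 0.062), a hexokinase. At an unadjusted p under 0.05 in limma stood 2 of 9 partners, 11 of 37 assembly factors (29.7%), 11 of 27 of the citric acid cycle list (40.7%), 6 of 15 carriers and porins, 1 of 19 regulators and 6 of 38 glycolytic probe sets (15.8%), against 27.4% of all tested probe sets. Mitochondrial ribosomal proteins had 2 higher and 1 lower of 72 probe sets for 68 gene symbols, with a median of -0.002. Cytosolic ribosomal proteins had 71 higher and 4 lower of 268 probe sets, with a median of 0.06. Those 268 stand for only 80 gene symbols, so many read the same gene. Over all tested probe sets 5.56% were higher and 4.18% lower. The subunit genes at a median of 0.03 lay between the 2 ribosomal lists, and the differences between lists were not tested.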

How the data were processed

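RNA from the dorsal hippocampus of 23 male rats was hybridised by the authors to 1 Affymetrix Rat Gene 1.0 ST array per rat. The study describes groups of equal size, and AC has 5 arrays here against 6 in each other group. The deposited intensities are unlogged RMA signals per probe set, made by the authors with RMA in Partek per the labels, with versions not given in the sources used here. RMA places all arrays on a shared distribution, so a change common to all transcripts would not be seen. The table has no comparison columns and no columns of other samples.

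Testing was limited to probe sets with 1 gene symbol in the platform annotation that reached a signal of 40 on 4 or more arrays (13339 of 29211), of which 85 of 88 members. Log2 signals were fitted with limma 3.58.1 in R 4.3.3, with 1 mean for each of the 4 groups and Benjamini-Hochberg adjustment over all tested probe sets, and a call needed an adjusted p under 0.05. The members were chosen, and the gene lists and most settings written, with earlier results of these data known. LT and ST against YC were added after the data had been seen. Figures and promoter counts used Python 3.11.15, pandas 2.3.3, numpy 2.4.6 and matplotlib 3.10.9. The fit was run on simulated data as a check of the code. That check required recovery only of effects larger than those of the called members.

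Named genes were, in each comparison, up to 12 members in each direction with the smallest p among those called and, where fewer than 3 passed, the 6 with the smallest p. The catalytic subunits, tissue isoforms, subunit c genes and Ndufa4 were named whatever their values, and other members were named for their probe set pairs or place near the threshold after their values were seen. Alternatives were each array left out, the choroid-rich arrays (marker score over 0.5) left out, covariates, a replicate block, array weights, a variance trend, other scalings, other filters and probe set choices, and the test of the study's methods, a one-way ANOVA on unlogged signals followed by Fisher's LSD. One blank value among members, for Ndufa10 in YC 1, was treated as missing. The number of arrays limits the precision. In the main fit, p-values set a group difference against the spread between arrays within groups, pooled over all groups. With 1 array per rat, that spread holds differences between rats and between array runs together.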

Additional observations from a re-analysis of the deposited data

Results flagged for a closer look

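In 18 of 284 sets of 4 to 10 arrays (a member or a mean level in 1 group), the highest or lowest array stood apart from the others by Dixon's criterion. Chance alone does this in about 1 in 20 sets.

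In LT, the lowest array LT 4 read 1368 for Atp5pd 10791822 (others 1489 to 1546) and 615 for Uqcrfs1 (others 646 to 662). In ST, the lowest array ST 3 read 918 for Atp5po (others 949 to 957) and 388 for Ndufv3 10829158 (others 446 to 479). The mean centred log2 level of all members was -0.028 on ST 3 (others 0.005 to 0.019), and that of complex IV was -0.04 (others 0.007 to 0.023).

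In AC, array 5 was highest for Cox5b at 1591 (others 1306 to 1384), Ndufs8 at 623 (others 549 to 561) and Ndufv2 at 1337 (others 1194 to 1231). Array 4 was highest for Atp5pd 10791822 at 1625 (others 1452 to 1498), Cox6b2 at 142 (others 123 to 127) and Ndufb4 10751348 at 851 (others 784 to 802). Array 3 was lowest for Cox5a 10844202 at 1164 (others 1331 to 1358) and highest for Uqcrfs1 at 690 (others 623 to 642). Array 1 was lowest for Cox4i1 at 2334 (others 2419 to 2436) and highest for Cox8c at 37 (others 27 to 29).

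In YC, array 2 was lowest for Cox5b at 1160 (others 1319 to 1362), and array 1 was highest for Cox7a2l at 1605 (others 1361 to 1445).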

How the results depend on the processing

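In AC against YC, 10 members were called, and 8 to 13 under most settings. The count was 4 without the choroid-rich arrays, 3 with only AC and YC in the fit and 20 by the methods' analysis without adjustment. With each array left out it was 6 to 10, lowest without YC 2. With array medians made equal it was 13, all higher. That setting also moved the median log2 fold change over all tested probe sets, from -0.0062 to 0.015. Ndufa11 (0.26 to 0.34 on the log2 scale) and Atp5me (0.20 to 0.27) were called under all 40 alternatives, Atp5mc2 10907634 (0.11 to 0.15) lost its call under 22 of 40, Cox6c-ps1 (-0.14 to -0.05) under 30 of 39, Ndufb10 (0.10 to 0.15) under 10 and Ndufb3 (0.12 to 0.15) under 6. No value changed direction past a call.

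By the methods' analysis without adjustment, the count was 6 instead of 0 in ST against AC, 12 instead of 0 in LT against AC, 3 instead of 0 in LT against ST, 6 instead of 0 in LT against YC, 17 instead of 1 in ST against YC and 20 instead of 5 for the F test. In LT against YC leaving out an array gave 0 to 1 calls (1 without AC 5). In ST against YC it gave 1 to 4 (4 without AC 5), and the count was 2 with the choroid plexus score, 2 with the RNA integrity number, 2 with quantile normalization, 3 with a variance trend, 4 with only ST and YC, 9 with array weights and 17 with array medians made equal. For the F test it was 0 without the choroid-rich arrays, 3 with the choroid plexus score, 3 with quantile normalization, 12 with array medians made equal and 2 to 5 with an array left out (2 without YC 2). The cause of these shifts was not tested. Shares of all tested probe sets called under these alternatives are not given in this report. The counts under them therefore cannot be set against a background and are not results about the members alone.

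Replicate numbers did not pair the rats. Deviations of same-numbered arrays correlated at -0.385 to 0.208 over 33 pairs, and 2 arrays correlated best with their own number. With the replicate number as a block, 8 members were called in AC against YC, all among the 10, and the block left the count at 1 in ST against YC, at 5 for the F test and at 0 in the other comparisons. Dim probe sets, such as Cox4i2, Cox8b and Cox8c, lie near the background of the array and carry little information.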
